A study of Homo sapiens with 12 samples.

Results

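The metallothioneins and the zinc exporter that shares their regulator were followed in HCT116 cells under 2 stressors. The set comprised 7 genes chosen by name, namely 5 metallothionein genes (MT1E, MT1F, MT1G, MT1X, and MT2A), the zinc exporter gene SLC30A1, and MTF1, out of 60708 rows of each count table. These genes were chosen with earlier results of these data known. All 7 had a row in both tables, and 6 had a mean count of at least 10 over the 6 libraries of each table. MT1G was below that mean and is given by its counts alone. MT1E and MT1X rose after both stressors, by 5.05-fold and 8.31-fold with OA and by 3.38-fold and 2.61-fold with TN, and MT2A rose by 4.48-fold with OA. Without OA replicate 2, the library with the highest values, the rises with OA were 3.32-fold for MT1E, 4.35-fold for MT1X, and 3.15-fold for MT2A, and without TN replicate 1 those with TN were 2.46-fold for MT1E and 2.28-fold for MT1X. These genes no longer passed the test with OA without any 1 of the 3 DMSO libraries or OA replicate 3, or with TN without any 1 of the 3 DMSO libraries or TN replicate 2 or 3. MT2A did not pass the main test with TN. It did when the TN and DMSO libraries were paired by replicate number, a fit in which 3915 of all 14432 genes passed against 1009 in the main fit. Without pairing, MT2A also passed with TN by DESeq2, with scaling to ACTB, with no count filter, and without TN replicate 1. MTF1 did not pass the test in either comparison, with or without pairing by replicate number. SLC30A1 passed in neither without pairing. With pairing it passed with OA only, whose replicate numbers were not taken as pairs.

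HCT116, a human colorectal carcinoma cell line labelled wild type, was exposed for 24 h to oligomycin A (OA), which blocks the mitochondrial ATP synthase, or to tunicamycin (TN), which blocks protein N-glycosylation and causes ER stress. Each stressor was given at 5 µg/mL according to the sample labels, and the text of the study names a higher dose of OA. Each had 3 biological replicates and its own 3 replicates treated with the solvent DMSO, which gave 4 groups and 12 libraries from a single cell line. The labels name a stranded kit for total RNA, whereas the study calls the assay mRNA-seq.

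Metallothioneins are small cysteine-rich proteins that bind zinc, copper, and cadmium and keep free zinc low in the cytosol. MTF1 is a zinc-sensing transcription factor that enters the nucleus when free zinc rises and binds short DNA sequences called metal response elements in the promoters of the metallothionein genes and of SLC30A1. The SLC30A1 protein, also called ZnT1, carries zinc out of the cell across the plasma membrane. Oxidants can release zinc from the cysteines of metallothioneins, and the metallothionein genes of human cells lie side by side on chromosome 16.

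In the hg38 annotation, the 5 metallothionein members lay within 75.6 kb of chromosome 16. MT2A was at chr16:56608584-56609497, MT1E at chr16:56625475-56627112, MT1F at chr16:56657731-56660698, and MT1X at chr16:56682470-56684196, all on the plus strand, and MT1G at chr16:56666730-56668065 on the minus strand. SLC30A1 (chr1:211571568-211579161) and MTF1 (chr1:37809574-37859592) were both on the minus strand of chromosome 1. A search of the genome with the 5 metallothionein transcripts kept only alignments with 98% identity or more over their whole length. It returned none of at least 30 bases at another place, and the longest shorter one was 29 bases, for MT1X. Longer alignments of lower identity were dropped, together with any identical stretch within them. The search therefore cannot show whether reads of these related genes align to 1 place only, which was not tested. MT1X was overlapped by another gene on its own strand and MTF1 by an antisense gene, and both of those rows were listed at 0 counts throughout.

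Promoter windows of RefSeq (build GRCh38.p14) were at hand for 4 of the 7 members, MT2A, MT1X, SLC30A1, and MTF1. Each window ran from 250 bases before to 50 bases after the gene start. The 250 bases before the start are shown 5′ to 3′ on the strand of the gene, so that matches to the core of the metal response element, which MTF1 is known to bind, can be compared between members. Capitals mark the core letters TGCACNC or TGCGCNC on either strand. The bases shown are chr16:56608334-56608583 for MT2A, chr16:56682220-56682469 for MT1X, chr1:211579162-211579411 for SLC30A1, and chr1:37859593-37859842 for MTF1.
MT2A: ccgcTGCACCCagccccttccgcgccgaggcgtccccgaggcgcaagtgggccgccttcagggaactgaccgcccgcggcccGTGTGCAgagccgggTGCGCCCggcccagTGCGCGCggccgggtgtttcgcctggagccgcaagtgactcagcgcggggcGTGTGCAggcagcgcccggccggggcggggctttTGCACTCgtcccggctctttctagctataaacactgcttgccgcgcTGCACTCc
MT1X: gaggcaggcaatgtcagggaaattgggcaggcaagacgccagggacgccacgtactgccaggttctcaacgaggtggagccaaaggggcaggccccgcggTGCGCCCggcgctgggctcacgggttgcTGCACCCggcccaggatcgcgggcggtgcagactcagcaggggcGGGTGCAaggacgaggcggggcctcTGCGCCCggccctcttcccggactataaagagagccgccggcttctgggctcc
SLC30A1: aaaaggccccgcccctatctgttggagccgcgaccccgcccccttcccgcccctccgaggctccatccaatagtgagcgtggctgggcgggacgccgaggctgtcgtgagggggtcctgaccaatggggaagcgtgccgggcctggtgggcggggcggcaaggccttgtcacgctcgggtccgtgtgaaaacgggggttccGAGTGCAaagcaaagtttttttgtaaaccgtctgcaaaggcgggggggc
MTF1: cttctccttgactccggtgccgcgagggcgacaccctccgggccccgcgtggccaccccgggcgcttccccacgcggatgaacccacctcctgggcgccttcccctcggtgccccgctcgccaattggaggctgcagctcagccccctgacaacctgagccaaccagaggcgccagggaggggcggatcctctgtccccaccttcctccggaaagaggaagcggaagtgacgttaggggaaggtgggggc

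The whole window of MT2A held 8 matches to the core, 7 before the start and 1 after it. That of MT1X held 4, all before the start, and that of SLC30A1 held 2, of which 1 was before the start. The window of MTF1 held 0. Of 35116 promoter windows of the same length, 29.6% held at least 1 match, 8.60% at least 2, 0.601% at least 4, and 0.0199%, or 7 windows, at least 8. The letters TGACNNNGC of the antioxidant response element, through which NRF2 is known to act, occurred 1 time in each window of MT2A, MT1X, and SLC30A1 and not in that of MTF1, whereas 13.3% of all windows held at least 1. In MT2A the antioxidant match began 104 bases before the start, between metal response element matches that began 139 and 88 bases before it. In MT1X it began 243 bases before the start, outside all 4 metal response element matches, which began between 150 and 53 bases before the start. No match of 1 motif overlapped a match of the other. A match is a description of letters and not a bound site.

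**Figure D1:**
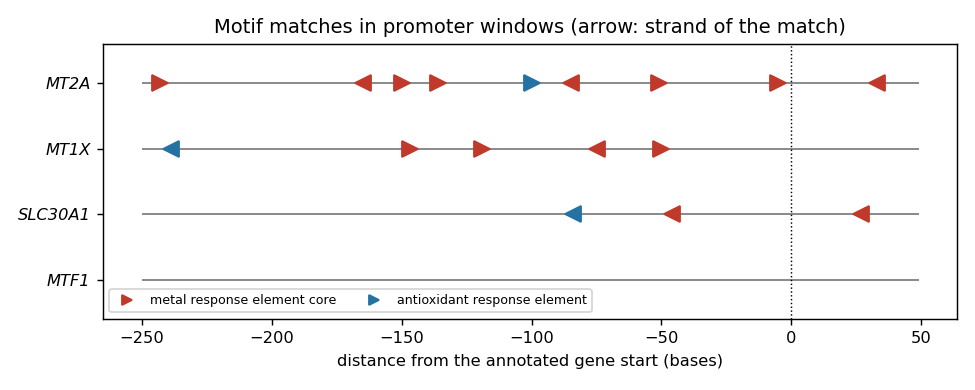
Matches to the metal response element core (red) and the antioxidant response element (blue) in the promoter windows of 4 members, by distance in bases from the gene start; arrows point along the strand of the match. MT2A held 8 core matches, MT1X 4, SLC30A1 2, and MTF1 0.

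The libraries held between 9884124 and 24983573 counts. Unless stated otherwise, values below are CPM, the usual measure of a gene's counts relative to library size. They were scaled by the TMM method of edgeR within each experiment, so that OA and TN levels stand side by side but were not set on 1 scale. The 6 epithelial markers summed to between 4535 and 7057 CPM of the library totals, without TMM scaling. Of these, 2 (CDH1 and CLDN7) passed as higher in each comparison, whereas no leukocyte marker exceeded 8 counts and CD3E was at 0 in all libraries. The endothelial markers reached at most 13 counts. Also without TMM scaling, the 4 fibroblast markers summed to between 3.74 and 9.04 CPM with OA against 1.20 to 2.44 CPM with its DMSO. With TN they summed to between 1.84 and 3.26 CPM against 1.82 to 3.55 CPM. Of these only COL1A1 was tested, with a log2 fold change of 2.02 with OA and an adjusted p of 0.0723 by edgeR's quasi-likelihood test, and the part of these markers in the results was not tested. OA replicate 2 and TN replicate 1 stood apart from the other treated libraries. The small cytoplasmic RNA RN7SL1 took 17.9% and 13.3% of their counts, against 6.02% to 12.5% in the other 10 libraries, and their TMM factors were the lowest, at 0.732 and 0.796. MT1E, MT2A, and MT1X were highest in these libraries, so fold changes, levels, and shares are also given without them, and the part of RN7SL1 in those values was not tested beyond leaving it out of the totals. In bulk RNA, a different number of cells of a kind and a different amount of RNA per cell cannot be told apart.

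With OA, 3 of the 6 members tested had an adjusted p under 0.05, all of them higher, whereas 4.48% of all 14681 genes tested had one and 2.76% had one and were higher. The 3 were MT1E, MT2A, and MT1X, and the median log2 fold change of the 6 members was 1.58, compared with -0.02 over all genes tested. The OA and DMSO libraries were fully separated, with OA higher, for 4 of the 6 and for 16.3% of all genes tested. Because the members were chosen with earlier results of these data known, these counts and medians describe them and do not test for an excess.

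MT1E, the member with the most counts, was at 107, 168, and 125 CPM in the DMSO libraries and at 424, 1126, and 466 CPM in the OA libraries. The lowest OA library was thus more than double the highest DMSO library, and OA replicate 2 was far above its group. The means were 133 ± 31.3 CPM and 672 ± 394 CPM (SD, n = 3 each). The log2 fold change was 2.34 (SE 0.42, 95% interval 1.37 to 3.30), with an adjusted p of 0.0296 by edgeR's quasi-likelihood test, adjusted by the method of Benjamini and Hochberg. It ranked 220 among the 14681 log2 fold changes.

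MT2A, the form of metallothionein that is found most widely in human tissues, was at 64.8, 79.3, and 76.8 CPM with DMSO and at 239, 526, and 226 CPM with OA. The groups did not overlap, and OA replicate 2 was again the highest. The means were 73.6 ± 7.79 CPM and 330 ± 169 CPM (SD, n = 3 each). This gave a log2 fold change of 2.16 (SE 0.37, 95% interval 1.32 to 3.00) with an adjusted p of 0.0270 by edgeR's quasi-likelihood test.

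MT1X, a further metallothionein of the cluster, was at 4.04, 4.74, and 6.20 CPM with DMSO and at 24.2, 81.4, and 19.2 CPM with OA. These are from 77 to 122 counts per DMSO library and from 185 to 816 counts per OA library. Again the groups did not overlap. The log2 fold change of 3.06 (SE 0.58, 95% interval 1.73 to 4.38) was the largest of the members, ranked 97 among all genes tested, and had an adjusted p of 0.0323 by edgeR's quasi-likelihood test.

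Without OA replicate 2, the log2 fold changes were 1.73 for MT1E, 1.65 for MT2A, and 2.12 for MT1X, and all 3 kept an adjusted p under 0.05 by edgeR's quasi-likelihood test (0.0128, 0.00898, and 0.0124). Without OA replicate 3, the log2 fold changes were 2.53 for MT1E, 2.36 for MT2A, and 3.39 for MT1X, none smaller than with all libraries, but the adjusted p was 0.0647, 0.0581, and 0.0569. Without DMSO replicate 1, 2, or 3 the log2 fold changes lay between 2.10 and 3.23 and the adjusted p between 0.104 and 0.166 for the 3 genes, when only 5, 3, and 3 genes of the whole table passed.

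MT1F had few reads, from 28 to 83 counts per library over both experiments. It was at 3.09, 1.62, and 3.00 CPM with DMSO and at 4.87, 6.19, and 3.01 CPM with OA. The groups overlapped at OA replicate 3, and the log2 fold change of 0.87 (SE 0.42, 95% interval -0.10 to 1.84) had an adjusted p of 0.259 by edgeR's quasi-likelihood test. MT1G had 3 counts in OA replicate 2 and none in the other 11 libraries, so it did not exceed the floor of 3 counts below which a level was not resolved, and no fold is given. At these depths a count of 0 allows up to 0.120 to 0.304 CPM of the library totals, without TMM scaling, an amount that covers counting error only. The remaining 7 metallothionein genes (MT1A, MT1B, MT1H, MT1M, MT1HL1, MT3, and MT4) were at 0 counts in all 12 libraries.

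SLC30A1, the zinc exporter, was at 15.1, 6.24, and 11.4 CPM with DMSO and at 34.1, 15.7, and 15.3 CPM with OA. The groups did not overlap on this scale, although the lowest OA library and the highest DMSO library were nearly equal. Relative to unscaled library totals they overlapped, with 157 of 13719776 counts in OA replicate 2 against 288 of 17260193 in DMSO replicate 1. The means were 10.9 ± 4.45 CPM and 21.7 ± 10.8 CPM (SD, n = 3 each), and the log2 fold change of 1.00 (SE 0.44, 95% interval -0.02 to 2.01) had an adjusted p of 0.223 by edgeR's quasi-likelihood test. OA replicate 1 was the highest library for this gene and not OA replicate 2, and without it the log2 fold change was 0.49.

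MTF1, the zinc-sensing regulator, was at 10.4, 9.64, and 12.1 CPM with DMSO and at 13.5, 17.2, and 9.13 CPM with OA. The groups overlapped, since OA replicate 3 was below all 3 DMSO libraries. The log2 fold change was 0.31 (SE 0.31, 95% interval -0.41 to 1.03), with an adjusted p of 0.581 by edgeR's quasi-likelihood test.

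**Figure D2:**
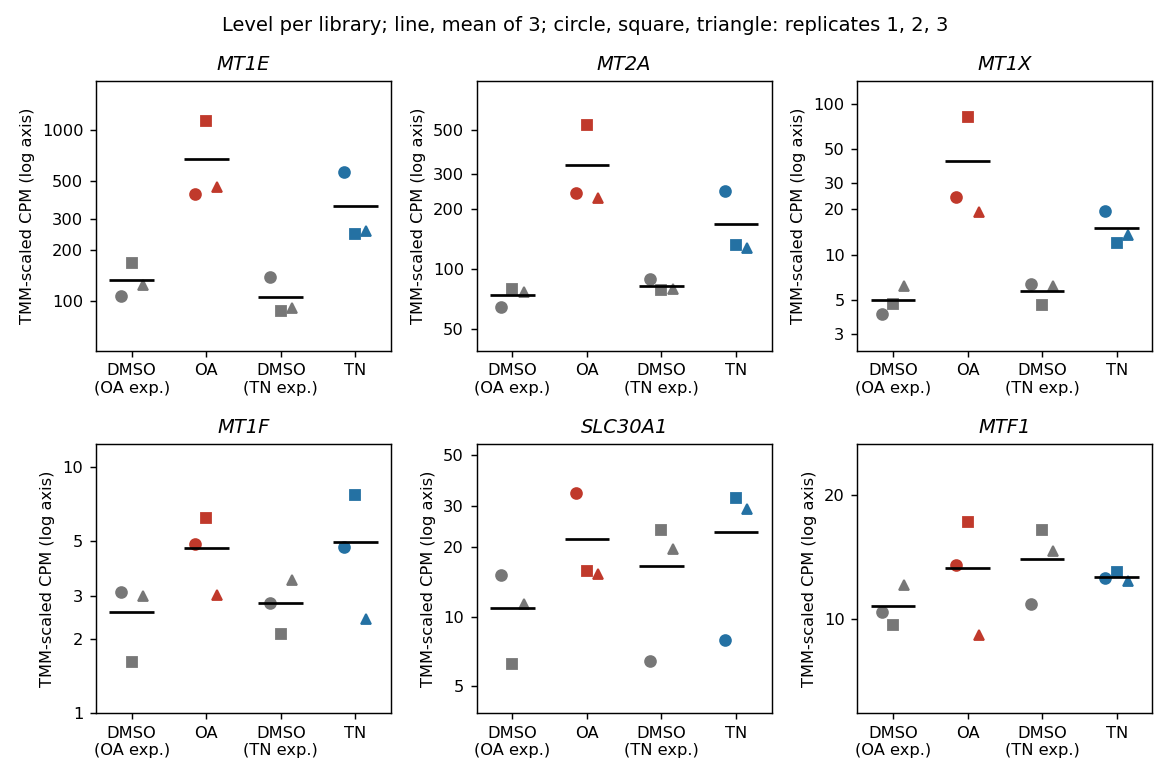
Level of each of the 6 members with a mean count of at least 10 in every library, in TMM-scaled CPM on a log axis that differs between panels; black lines are means of 3 replicates, and circles, squares, and triangles are replicates 1, 2, and 3. MT1E, MT2A, and MT1X lie higher in every treated library than in every DMSO library of the same experiment, with OA replicate 2 and TN replicate 1 at the top, whereas SLC30A1 is lowest in TN replicate 1 among the TN libraries.

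With TN, 2 of the 6 members tested had an adjusted p under 0.05, both of them higher, whereas 6.99% of all 14432 genes tested had one and 3.65% had one and were higher. These were MT1E and MT1X. With the replicate number as a block, 3 members passed, MT2A in addition, where 3915 of all 14432 genes did. The median log2 fold change of the 6 members was 0.93, compared with -0.03 over all genes tested. In 3 of the 6, namely MT1E, MT2A, and MT1X, the lowest TN library was above the highest DMSO library, as for 15.9% of all genes tested. As with OA, the choice of members with earlier results known makes these counts a description and not a test for an excess.

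MT1E was at 138, 88.0, and 91.1 CPM with DMSO and at 567, 247, and 258 CPM with TN. The groups did not overlap, and replicate 1 was the highest library of both groups. The means were 106 ± 28.02 CPM and 358 ± 181 CPM (SD, n = 3 each). This gave a log2 fold change of 1.76 (SE 0.38, 95% interval 0.87 to 2.65) with an adjusted p of 0.0377 by edgeR's quasi-likelihood test.

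MT1X was at 6.41, 4.67, and 6.23 CPM with DMSO and at 19.6, 11.99, and 13.6 CPM with TN. Its TN libraries thus lay close together compared with the OA libraries. The means were 5.77 ± 0.957 CPM and 15.05 ± 4.01 CPM (SD, n = 3 each), and the log2 fold change of 1.38 (SE 0.29, 95% interval 0.71 to 2.05) had an adjusted p of 0.0331 by edgeR's quasi-likelihood test. In 1 fit of all 12 libraries, with a log2 fold change of 1.36, that adjusted p was 0.0835.

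MT2A was at 88.5, 78.8, and 79.2 CPM with DMSO and at 247, 132, and 128 CPM with TN. The groups did not overlap, but the log2 fold change of 1.04 (SE 0.30, 95% interval 0.35 to 1.73) had an adjusted p of 0.0781 by edgeR's quasi-likelihood test. With the replicate number as a block, which pairs the TN and DMSO libraries, it was 0.97 with an adjusted p of 0.00780.

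Without TN replicate 1, the log2 fold changes were 1.296 for MT1E, 1.19 for MT1X, and 0.70 for MT2A, and the adjusted p by edgeR's quasi-likelihood test was 0.0134, 0.0194, and 0.0265, in a table in which 2361 genes passed against 1009 with all libraries. Without any 1 of the other 5 libraries (DMSO replicates 1, 2, and 3 and TN replicates 2 and 3), the log2 fold change lay between 1.59 and 1.98 for MT1E and between 1.22 and 1.52 for MT1X, whereas the adjusted p lay between 0.0553 and 0.148 and between 0.0612 and 0.140, and between 151 and 473 genes of the whole table passed.

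MT1F was at 2.79, 2.11, and 3.49 CPM with DMSO and at 4.74, 7.65, and 2.40 CPM with TN. The groups overlapped, since TN replicate 3 was below DMSO replicates 1 and 3, and the log2 fold change of 0.82 (SE 0.46, 95% interval -0.25 to 1.89) had an adjusted p of 0.324 by edgeR's quasi-likelihood test.

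SLC30A1 was at 6.46, 23.7, and 19.6 CPM with DMSO and at 7.90, 32.5, and 29.2 CPM with TN. The spread within each group was larger than the gap between them, because replicate 1 was the lowest library of both. Between libraries with the same replicate number, the TN level was 1.22, 1.37, and 1.49 times the DMSO level. The log2 fold change was 0.49 (SE 0.61, 95% interval -0.94 to 1.92) with an adjusted p of 0.684 by edgeR's quasi-likelihood test. With the replicate number as a block, it was 0.45 (SE 0.17) with an adjusted p of 0.0897 by the same edgeR test. In that fit 3915 of all 14432 genes passed. Replicate 1 of both groups was the highest library for MT1E and MT2A and the lowest for SLC30A1.

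MTF1 was at 10.8, 16.5, and 14.6 CPM with DMSO and at 12.5, 13.0, and 12.4 CPM with TN. All 3 TN libraries lay within the DMSO range, and the log2 fold change was -0.14 (SE 0.24, 95% interval -0.71 to 0.42) with an adjusted p of 0.767 by edgeR's quasi-likelihood test. With scaling to ACTB the log2 fold change of MTF1 was 0.16, so its direction with TN depended on the scaling.

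**Figure D3:**
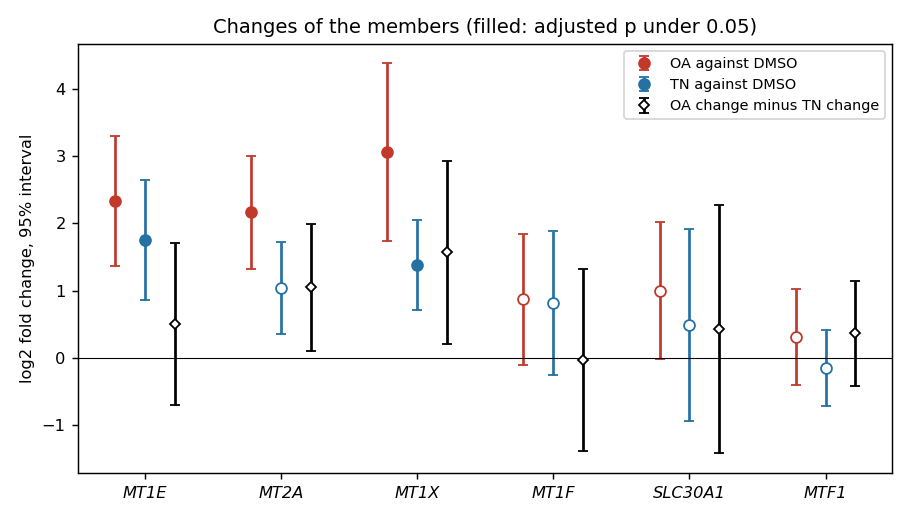
log2 fold changes of the 6 tested members with 95% intervals, for OA (red) and TN (blue) against their own DMSO libraries and for the OA change minus the TN change (black diamonds); filled circles had an adjusted p under 0.05. The intervals of MT1E, MT2A, and MT1X lie above 0 for both stressors, and those of the difference lie above 0 for MT1X (0.21 to 2.93) and MT2A (0.11 to 2.00) before adjustment. No difference had an adjusted p under 0.05.

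Whether the members changed more with OA than with TN was addressed with a contrast fitted to the 12 libraries together. Of 15429 genes tested, 0 (0%) had an adjusted p under 0.05 by edgeR's quasi-likelihood test, 348 had an unadjusted p under 0.05, and DESeq2 gave 0 as well, so none of the 6 members was called. With no filter 25 of 31222 genes passed, and without OA replicate 2 there were 4 of 15865. No member was among them in either fit. The largest difference among them was that of MT1X, 1.57 on the log2 scale (SE 0.62, 95% interval 0.21 to 2.93), with an unadjusted p of 0.0268 by edgeR's quasi-likelihood test. That of MT2A was 1.05 (SE 0.43, 95% interval 0.11 to 2.00), with an unadjusted p of 0.0321 by the same edgeR test. The adjusted p was 1.00 for all 6 members. Without OA replicate 2 the difference was 0.73 for MT1X and 0.62 for MT2A, with an unadjusted p of 0.0819 and 0.0882 by edgeR's quasi-likelihood test.

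The difference for MT1E was 0.51 (95% interval -0.69 to 1.70), and without OA replicate 2 it was -0.01. For SLC30A1 it was 0.42 (95% interval -1.42 to 2.27), for MTF1 0.37 (95% interval -0.42 to 1.15), and for MT1F -0.03 (95% interval -1.38 to 1.33). In this unpaired fit the intervals for SLC30A1 and MT1F span more than a factor of 2 in each direction, so neither equal nor unequal change could be shown. With the replicate number as a block, the SE for SLC30A1 was 0.31 in place of 0.85. The difference was then 0.45, with an adjusted p of 0.921 by edgeR's quasi-likelihood test. For MT1F the SE was 0.68 with the block. That block also pairs the OA libraries, whose numbers were not taken as pairs.

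The order of the members by level was then compared per kilobase of the canonical transcript, since the metallothionein transcripts are short. That transcript was 746 bases for MT1E, but 401 for MT2A, 404 for MT1X, and 425 for MT1F. The order of MT1E and MT2A per kb rests on these annotated lengths. In CPM without division by length, the mean of MT1E was above that of MT2A in each group, with 133 against 73.6 in the DMSO libraries of OA. In the DMSO libraries of the OA experiment the mean level was 184 CPM per kb for MT2A, 178 for MT1E, 12.4 for MT1X, 6.05 for MT1F, 1.85 for SLC30A1, and 1.35 for MTF1. MT2A and MT1E did not differ beyond their spread there, nor did SLC30A1 and MTF1. With OA the levels per kb were 900 for MT1E, 823 for MT2A, 103 for MT1X, 11.03 for MT1F, 3.69 for SLC30A1, and 1.67 for MTF1. With TN they were 479 for MT1E, 421 for MT2A, 37.3 for MT1X, 11.6 for MT1F, 3.94 for SLC30A1, and 1.59 for MTF1, against 142, 205, 14.3, 6.58, 2.81, and 1.76 in the DMSO libraries of TN. The order of the 4 metallothioneins was the same in both treated groups, where the values of MT1E and MT2A overlapped. The OA means rest in part on OA replicate 2. Without it the levels per kb were 596 for MT1E, 580 for MT2A, and 53.7 for MT1X, so that the mean of MT1X with all libraries was 1.92 times that without it. Without TN replicate 1 the TN levels per kb were 339 for MT1E, 323 for MT2A, and 31.6 for MT1X.

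The counts of the 5 metallothionein members were also summed per library, since the sum does not depend on how the counted reads are divided among these 5 genes. Reads that align to more than 1 place are not counted, and the sum does not restore them. MT1E made up 50.6% to 67.7% of the sum, MT2A 29.4% to 45.4%, MT1X 1.87% to 4.68%, and MT1F 0.356% to 1.94%. For the OA experiment, the sum took 0.0197%, 0.0257%, and 0.0235% of all counts with DMSO and 0.0767%, 0.127%, and 0.0696% with OA. Every OA library was at least double every DMSO library. The means were 0.0230% ± 0.00300 and 0.0911% ± 0.0313 (SD, n = 3 each), a ratio of 3.96, and the two-sided exact permutation p was 0.1, the smallest that 3 against 3 libraries can give. With TN the sum took 0.0666%, 0.0419%, and 0.0407% of the counts against 0.0235%, 0.0191%, and 0.0192% with DMSO. The groups did not overlap, the ratio of the means was 2.41, and the two-sided exact permutation p was again 0.1. With RN7SL1 left out of the totals, the ratios were 4.28 for OA and 2.54 for TN. Without OA replicate 2 the ratio for OA was 3.18, and without TN replicate 1 that for TN was 2.004.

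The other genes of zinc transport were taken next, as lists chosen by name with earlier results of these data known. Of the 10 further genes of zinc export, 6 were tested and none passed in either comparison, where 4.48% of all genes passed with OA and 6.99% with TN, so that a count of 0 among 6 is near the background. They had a median log2 fold change of -0.32 with OA and -0.02 with TN. The lowest p among them was that of SLC30A3, which loads zinc into vesicles. It was at 4.87, 4.67, and 3.86 CPM with DMSO and at 2.32, 2.67, and 3.01 CPM with TN, a log2 fold change of -0.74 with an adjusted p of 0.169 by edgeR's quasi-likelihood test, and the corresponding values with OA were -0.82 and 0.335.

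Of the 14 zinc importer genes of the SLC39 family, 11 were tested. With TN, 2 of them rose and none fell, where 6.99% of all genes tested passed and 3.65% passed as higher, and with OA none passed, where 4.48% of all genes did. SLC39A14, which carries zinc and iron into the cytosol, was at 223, 208, and 193 CPM with DMSO and at 435, 459, and 461 CPM with TN. Its log2 fold change of 1.12 (SE 0.18) had an adjusted p of 0.0130 by edgeR's quasi-likelihood test. With OA it was at 204, 221, and 190.02 CPM with DMSO and at 320.4, 394, and 349 CPM with OA, so that the groups did not overlap there either, with a log2 fold change of 0.79 and an adjusted p of 0.0737 by the same edgeR test. SLC39A11, a zinc transporter of the same family, was at 36.9, 42.3, and 41.0 CPM with DMSO and at 67.6, 78.1, and 76.3 CPM with TN, a log2 fold change of 0.88 with an adjusted p of 0.0348 by the same edgeR test. With OA it was the importer with the lowest p, with a log2 fold change of 0.85 and an adjusted p of 0.0654 by edgeR's quasi-likelihood test. The medians of the 11 importers were 0.00 with OA and 0.07 with TN, close to those of all genes tested, and across the alternatives that kept all libraries between 0 and 6 of them passed with OA and between 1 and 5 with TN, the most with the replicate block, under which 3914 of all 14681 genes passed with OA and 3915 of 14432 with TN. None passed with TN without DMSO replicate 2 or 3 or without TN replicate 2 or 3, and without OA replicate 2 SLC39A11 passed with OA (adjusted p of 0.0487 by edgeR's quasi-likelihood test). Without OA replicate 1, 1 importer passed with OA, when 1179 of 15573 genes did. With TN, 3 passed without TN replicate 1 and 1 without DMSO replicate 1, when 2361 of 14950 and 473 of 14947 genes did.

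The log2 fold changes of largest size among the importers were below 0, those of SLC39A10 with OA and SLC39A8 with TN, and both genes are named because of their values. SLC39A8 was at 46.8, 25.4, and 39.7 CPM with DMSO and at 17.2, 4.99, and 17.7 CPM with OA, and at 29.8, 47.8, and 44.6 CPM with DMSO and at 8.64, 20.8, and 19.1 CPM with TN. All treated libraries lay below all DMSO libraries in both experiments, with log2 fold changes of -1.48 and -1.33 and an adjusted p of 0.116 and 0.0742 by edgeR's quasi-likelihood test. Without TN replicate 1 the TN value was -0.98 with an adjusted p of 0.0292 by the same edgeR test. SLC39A10 was at 82.2, 27.8, and 43.7 CPM with DMSO and at 21.6, 1.197, and 6.95 CPM with OA, with a log2 fold change of -2.36 and an adjusted p of 0.145 by edgeR's quasi-likelihood test, and with TN the libraries overlapped and the log2 fold change was -1.05.

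Copper is a further metal that metallothioneins bind. All 11 genes of copper uptake, delivery, and export were tested, and none passed with OA or with TN, where 4.48% and 6.99% of all genes did, with medians of 0.03 and -0.05. With OA the lowest p was that of SOD1, the cytosolic copper and zinc superoxide dismutase, at 477, 510, and 480 CPM with DMSO and at 279, 299, and 284 CPM with OA. Its groups did not overlap, and the log2 fold change of -0.77 had an adjusted p of 0.0690 by edgeR's quasi-likelihood test. With TN the lowest p was that of SLC31A1, the copper importer CTR1, with a log2 fold change of 0.75 and an adjusted p of 0.0514 by the same edgeR test. Between 0 and 4 of the 11 passed with OA and between 0 and 5 with TN across the alternatives that kept all libraries, again the most with the replicate block and its 3914 and 3915 calls over all genes. Without TN replicate 1, 4 passed with TN, when 2361 of 14950 genes did. With OA, 1 passed without OA replicate 1 or 2, when 1179 of 15573 and 857 of 15499 genes did. Leaving out any other single library gave none.

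Of 8 genes of the oxidant and metal response, several of which are known NRF2 targets, 4 passed in each comparison. With OA 3 rose and 1 fell, where 4.48% of all genes tested passed, and with TN 4 rose and none fell, where 6.99% did. The median log2 fold changes of the 8 were 1.25 and 0.83, against -0.02 and -0.03 over all genes tested. This list too was chosen with earlier results of these data known, so its counts and medians are a description. GSR, GCLM, and SELENOH passed in neither. GCLC, the catalytic subunit of the enzyme that limits glutathione synthesis, was at 99.7, 66.2, and 90.7 CPM with DMSO and at 398, 517, and 298 CPM with OA, a log2 fold change of 2.24 with an adjusted p of 0.0157 by edgeR's quasi-likelihood test. With TN its log2 fold change was 1.63 with an adjusted p of 0.00814 by edgeR's quasi-likelihood test. SLC7A11, the cystine importer that feeds glutathione synthesis, had log2 fold changes of 2.41 with OA and 2.705 with TN, and TXNRD1, the cytosolic thioredoxin reductase, had 1.38 and 1.01. All 4 of these values had an adjusted p between 0.0219 and 0.0415 by edgeR's quasi-likelihood test.

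HMOX1, which encodes the stress-induced heme oxygenase, was at 26.3, 36.6, and 34.4 CPM with DMSO and at 92.1, 1610, and 159 CPM with OA. OA replicate 2 was far above the other OA libraries, as it was for MT1X, and the log2 fold change of 4.26 (SE 1.04) had an adjusted p of 0.0589 by edgeR's quasi-likelihood test. Without that library the log2 fold change was 1.93 (SE 0.28), a 3.82-fold rise in place of 19.1-fold, with an adjusted p of 0.0138 by the same edgeR test. With TN, HMOX1 was at 168, 72.7, and 77.2 CPM against 37.8, 30.4, and 29.8 CPM, again highest in replicate 1, and rose with a log2 fold change of 1.70 and an adjusted p of 0.0352 by edgeR's quasi-likelihood test. SELENOW, a small selenoprotein gene named after its values were seen because it was the 1 gene of the list that fell, had a log2 fold change of -1.14 with OA and an adjusted p of 0.0467 by the same edgeR test. Between 3 and 6 of the 8 passed across the alternatives that kept all libraries, for either stressor, the most with the replicate block, and without a single library between 0 and 5 passed with OA (0 without DMSO replicate 1, 2, or 3) and between 0 and 6 with TN (0 without DMSO replicate 2 or 3 or TN replicate 3).

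**Figure D4:**
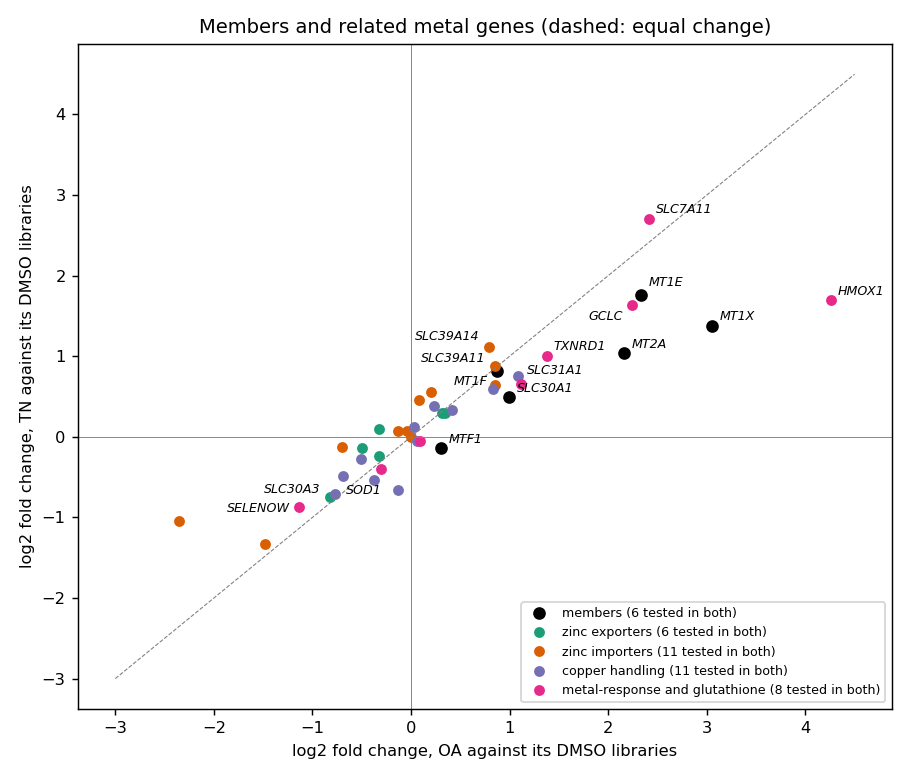
log2 fold change with TN against that with OA for the 6 tested members (black) and for the tested genes of zinc export, zinc import, copper handling, and the oxidant and metal response; the dashed line marks equal change. MT1X and MT2A lie to the right of the line at 3.06 and 2.16 with OA against 1.38 and 1.04 with TN, and the tested zinc exporters lie between -0.82 and 0.35 with OA.

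The members were also compared by their pattern over the 12 libraries, as log2 CPM from a scaling of all 12. The standardised levels of the 4 metallothioneins with a mean count of at least 10 were averaged per library, which gave a profile highest in OA replicate 2 (1.86 SD units), followed by OA replicate 1 (0.97) and TN replicate 1 (0.73). Pearson's r with this profile was 0.98 for MT1X, 0.97 for MT2A, 0.95 for MT1E, and 0.76 for MT1F, which are part of it, but 0.23 for MTF1 and 0.21 for SLC30A1. Without OA replicate 2 and TN replicate 1, an alternative chosen after the data were seen, r over the other 10 libraries lay between 0.926 and 0.971 for MT1X, MT2A, and MT1E, and was 0.67 for MT1F, -0.05 for MTF1, and 0.55 for SLC30A1. Among 8989 other genes with a mean of at least 10 CPM, the 5 most alike were KHNYN (r = 0.977), S100A11 (0.971), SLC7A1 (0.968), DAP (0.967), and MOCOS (0.966). The points share their libraries, depth, and treatment, and these values are given as a description of 12 libraries.

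These 5 genes were chosen for a profile that is high in treated and low in DMSO libraries, so their fold changes follow from the choice and are given without a test. MOCOS, which encodes the molybdenum cofactor sulfurase, had log2 fold changes of 2.07 with OA and 1.33 with TN. SLC7A1, a transporter of cationic amino acids, had 1.43 and 1.07, and KHNYN, a cofactor of the antiviral protein ZAP, had 1.24 and 0.88. S100A11, a calcium-binding protein, had 1.56 and 1.04, and DAP, a regulator of cell death and autophagy, had 1.27 and 0.68. Without OA replicate 2 and TN replicate 1, r was between 0.946 and 0.980 for these 5 genes.

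**Figure D5:**
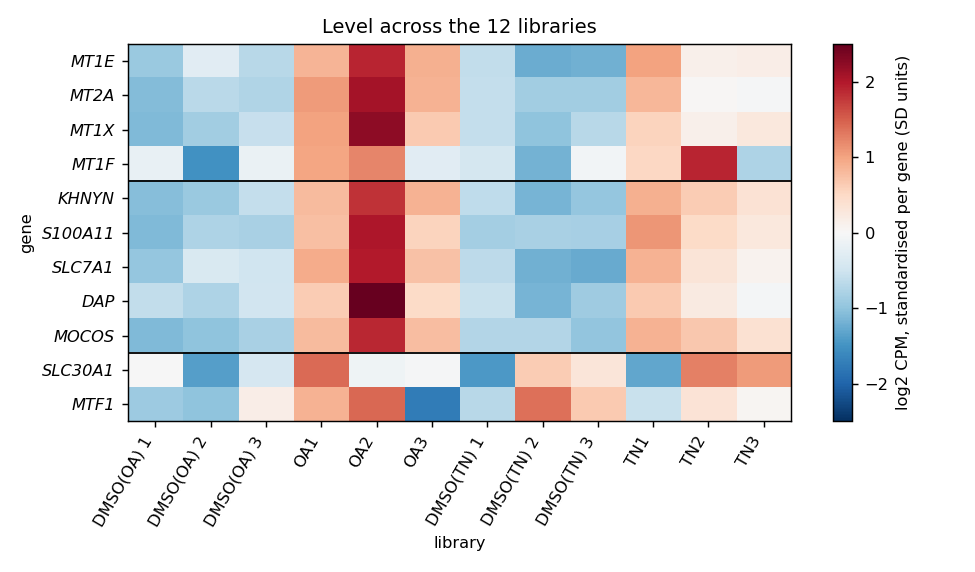
Standardised log2 CPM (SD units per gene, colour) of the metallothioneins, the 5 genes with the most similar profile, SLC30A1, and MTF1 in each of the 12 libraries. MT1E, MT2A, and MT1X peak in OA replicate 2 together with the 5 similar genes, and SLC30A1 is lowest in replicate 1 of both TN groups and in DMSO replicate 2 of OA.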

How the data were processed

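Per the labels and the methods of the study, RNA from 12 HCT116 cultures was sequenced, 3 biological replicates for each of OA, TN, and their DMSO controls. With STAR and hg38, the authors obtained raw counts per gene of Gencode release 32, which they deposited without scaling. STAR's gene counts use uniquely aligned reads, and the strand column kept is not given in the sources used here. The authors' DESeq2 results (fold changes and p-values) were not used. All sample columns matched a library, and 0 did not. Libraries of 1 group differed by more than sampling noise (chi-square per gene at least 6.25).

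Counts were scaled by TMM, filtered by filterByExpr, and fitted for OA and TN separately in edgeR 4.0.16 (R 4.3.3), whose two-sided quasi-likelihood F-test gave the p-values. These were adjusted by Benjamini-Hochberg across each table, at a threshold of 0.05. The difference between stressors was a contrast over 12 libraries. The SE was derived as the absolute log2 fold change over root F, and intervals are at 95%. Mean ± SD is of TMM-scaled CPM. Summed shares were compared by exact permutation in scipy 1.17.1. Profiles used log2 CPM with a prior count of 2. A floor of 3 counts was treated as not resolved, and floors and depth cover counting error only. The scripts were tested on simulated data.

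The members and gene lists were chosen with earlier results of these data known. All 7 members are named, and from each list the genes under the threshold, at most 3 per comparison by lowest p, or the gene of lowest p where none passed, and the 5 genes closest to the metallothionein profile. Positions and transcript lengths come from Gencode 44 (hg38), copies were searched with BLAST 2.17.0, and promoter windows come from RefSeq (GRCh38.p14).

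Alternatives were DESeq2 1.42.0, its size factors in edgeR, library totals, scaling to ACTB, a filter of 10 counts per library or none, blocking on the replicate number, a joint fit of 12 libraries, and fits without each library. Replicate numbers in the labels were checked for pairing by the correlation of same-numbered libraries' deviations from their group means. For TN these were 0.64, 0.41, and 0.43, so the numbers were taken as pairs on the basis of this check and the labels, although DMSO replicate 3 with TN replicate 2 (0.44) and DMSO replicate 2 with TN replicate 3 (0.38) correlated about as well. For OA they were 0.62, 0.54, and 0.09, and the numbers were not taken as pairs.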

Additional observations from a re-analysis of the deposited data

How the results depend on the processing

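With OA, MT1E, MT2A, and MT1X passed under all 8 alternatives other than leaving out a library. SLC30A1 passed in addition with the replicate block alone (log2 fold change 0.98, adjusted p of 0.0153 by edgeR), where the calls over all genes went from 658 to 3914, and the correlations of same-numbered OA libraries do not establish pairs. Leaving out each library in turn left between 0 and 3 members with an adjusted p under 0.05 for OA and between 0 and 3 for TN, while the calls over all genes ranged from 3 to 1179 and from 151 to 2361. The log2 fold change of MT1E then ranged from 1.73 to 2.57 with OA and from 1.296 to 1.98 with TN. With TN, 3 members passed with DESeq2, scaling to ACTB, no filter, and the replicate block (MT2A in addition), and 1 passed in 1 fit of 12 libraries. The replicate block took the TN calls over all genes from 1009 to 3915 and changed no other call of a member with TN. The summed shares kept their direction in every setting run, with a sign-flip p of 0.25 with the replicate block, the smallest that 3 pairs can give. The all-gene median log2 fold change was -0.23 (OA) and -0.18 (TN) with library totals, and 0.42 and 0.30 with scaling to ACTB, which itself was at -0.49 and -0.35. MTF1 with TN was 0.16 with scaling to ACTB. The OA minus TN difference of MT1F changed sign, to 0.044 with DESeq2, 0.046 with its size factors, 0.12 with scaling to ACTB, 0.053 with no filter, and 0.078 with the replicate block, and ranged from -0.27 to 0.50 without each library. Without each library the difference ranged from -0.011 to 1.07 for MT1E and from -0.15 to 0.79 for SLC30A1. The cause of these shifts was not tested. MT1G was not resolved at this depth, and MT1F, at 28 to 83 counts per library, had an SE of 0.42 with OA, close to that of MT1E.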

Other observations

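Of 6 pseudogene rows of the metallothionein family, 3 were at 0 counts in all 12 libraries, and none had enough counts to be tested. MT1DP, the pseudogene with the most counts, had 13, 28, and 7 counts with DMSO against 4, 5, and 0 with OA, and 12, 14, and 4 counts with DMSO against 10, 0, and 2 with TN. MT1XP1 had 7, 0, and 2 counts with DMSO against 1, 0, and 0 with OA, and 0, 0, and 0 against 7, 0, and 3 with TN. MT1JP had 2 counts in OA replicate 1 and none elsewhere.

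Genes next to the metallothionein cluster, in a window of 500 kb on either side that was chosen after the data were seen, had a median log2 fold change of 0.08 over 10 genes tested with OA and 0.23 over 11 with TN. HERPUD1, a gene of ER-associated degradation that is known to respond to ER stress, rose with log2 fold changes of 2.15 and 3.04 and an adjusted p of 0.0418 and 0.00240 by edgeR's quasi-likelihood test. NUP93, a subunit of the nuclear pore, fell with log2 fold changes of -1.10 and -1.26 and an adjusted p of 0.0454 and 0.0249 by the same edgeR test. With TN, 2 further rows at the HERPUD1 locus on its strand passed, RP11-325K4.3 (2.30) and RP11-325K4.2 (2.77), and reads of HERPUD1 and of these overlapping rows may not be told apart.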
